A study of Homo sapiens with 48 samples.

Results

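The genes described here are 10 genes of the human cytosolic heat shock response: HSPA6, HSPA1A, HSPA1B, HSPA8, HSPH1, HSP90AA1, DNAJB1, HSPB1, BAG3 and HSF1. They were found by gene symbol in an RNA-seq table of 15500 genes with a row of their own and in a GRO-seq table of 14743. All 10 had a row in RNA-seq and 9 in GRO-seq, since HSPA6 was not analysed in GRO-seq here. The list was drawn up because HSPA6 stood among the highest fold changes of RNA-seq contrast 2, so its value there is given as a description with no test.

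All cells were of the MCF10A-1 line from human breast epithelium, whose cell type the labels give as a malignancy of that epithelium. One line carried a vector control and the other stably expressed SATB1, a nuclear protein that organises chromatin loops. Each was left untreated or given the polycyclic aromatic hydrocarbon benzo[a]pyrene at 4 µM for 3 hours or 3 days, and all were grown in serum-containing medium. This gave 6 groups of 4 libraries in each of 2 assays, and 48 libraries in all. RNA-seq measured accumulated polyadenylated mRNA. GRO-seq, a nuclear run-on assay, measured RNA while it was being made. The labels do not say whether the SATB1 cells are 1 clone or a pool. They also leave unsaid whether the 4 libraries of a group are independent cultures, so a p-value here speaks only of the scatter among those libraries, which can be technical.

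Heat shock proteins are molecular chaperones, which bind unfolded proteins and help them fold, refold or reach degradation. HSP70 chaperones bind client proteins in a cycle driven by ATP, J-proteins deliver the clients, HSP110 and BAG proteins release the bound nucleotide, and HSP90 takes over clients at a later stage of folding. When unfolded proteins build up in the cytosol, the transcription factor HSF1 forms trimers and binds heat shock elements, which are inverted repeats of the unit GAA, in the promoters of these genes.

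The promoters of the members were read from RefSeq (GRCh38.p14), which held 12 starts of 9 members. Those of the 3 members with the highest RNA-seq fold changes in contrast 2, and of 3 more members with heat shock elements, are printed here as the 250 bases before the annotated start, 5′ to 3′ on the strand of the gene, with the heat shock elements found in capitals. They lie at chr1:161524290-161524539 on the plus strand (HSPA6), chr6:31815293-31815542 on the plus strand (HSPA1A), chr6:31827488-31827737 on the plus strand (HSPA1B), chr11:123062137-123062386 on the minus strand (HSPA8), chr14:102087045-102087294 on the minus strand (HSP90AA1, the downstream of 2 starts) and chr19:14518398-14518647 on the minus strand (DNAJB1, the middle of 3 starts).
HSPA6: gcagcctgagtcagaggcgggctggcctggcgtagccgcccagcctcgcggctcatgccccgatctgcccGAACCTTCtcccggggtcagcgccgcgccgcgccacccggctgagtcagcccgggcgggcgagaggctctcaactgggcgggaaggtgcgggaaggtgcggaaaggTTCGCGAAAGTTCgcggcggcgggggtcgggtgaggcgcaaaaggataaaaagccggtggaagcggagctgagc
HSPA1A: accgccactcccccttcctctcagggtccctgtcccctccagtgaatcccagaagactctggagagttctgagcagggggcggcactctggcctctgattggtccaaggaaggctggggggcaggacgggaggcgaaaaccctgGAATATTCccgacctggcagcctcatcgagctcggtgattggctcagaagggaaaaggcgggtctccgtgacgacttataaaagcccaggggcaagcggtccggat
HSPA1B: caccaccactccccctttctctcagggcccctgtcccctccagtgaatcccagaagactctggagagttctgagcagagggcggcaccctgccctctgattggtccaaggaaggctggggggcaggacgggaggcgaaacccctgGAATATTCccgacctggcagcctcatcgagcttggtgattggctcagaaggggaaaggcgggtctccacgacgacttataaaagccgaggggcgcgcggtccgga
HSPA8: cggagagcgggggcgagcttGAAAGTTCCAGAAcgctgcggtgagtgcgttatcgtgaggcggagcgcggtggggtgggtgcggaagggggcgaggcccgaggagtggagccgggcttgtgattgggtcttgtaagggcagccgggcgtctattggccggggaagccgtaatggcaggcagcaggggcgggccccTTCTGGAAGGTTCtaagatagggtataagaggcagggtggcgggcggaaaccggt
HSP90AA1: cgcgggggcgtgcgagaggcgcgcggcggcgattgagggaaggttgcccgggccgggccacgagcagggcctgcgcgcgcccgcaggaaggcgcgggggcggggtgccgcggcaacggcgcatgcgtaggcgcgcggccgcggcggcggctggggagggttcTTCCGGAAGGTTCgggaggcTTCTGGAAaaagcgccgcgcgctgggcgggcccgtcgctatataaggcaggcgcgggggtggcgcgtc
DNAJB1: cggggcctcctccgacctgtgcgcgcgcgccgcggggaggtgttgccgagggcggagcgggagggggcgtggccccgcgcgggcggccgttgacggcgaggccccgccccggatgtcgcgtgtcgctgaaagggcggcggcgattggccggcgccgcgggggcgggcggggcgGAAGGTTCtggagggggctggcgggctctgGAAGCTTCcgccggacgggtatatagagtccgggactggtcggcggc

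Heat shock elements of 2 units (GAANNTTC or TTCNNGAA, each its own reverse complement in pattern) were present in 7 of the 12 member promoters. They were present in 11.6% of the 35116 promoters of the same length in that set, which are the "all promoters" below. The 7 promoters belonged to HSPA6, HSPA1A, HSPA1B, HSPA8, HSP90AA1, DNAJB1 and HSPB1. For HSP90AA1 and DNAJB1 this was the start printed above, and their other starts held no such letters in this window. Nor did the promoters of HSPH1 and BAG3. Elements of 3 units, in which a further unit in alternating orientation follows after another gap of NN and both 2-unit forms overlap, were present in 0.441% of all promoters and in those of HSPA6, HSPA8 and HSP90AA1. The one at HSPA6 spanned bases -74 to -62 before the start, and HSPA8 had one at -55 to -43 and another at -230 to -218. The promoters of HSPA1A and HSPA1B each held a 2-unit element, at -106 to -99 and at -105 to -98, and a TATAAA box at -30 to -25 and at -29 to -24. They were 93.6% identical over these 250 bases, while the other pairs of HSP70 promoters were 45.0% to 49.5% identical. GCGTG, the core of the dioxin response element to which the aryl hydrocarbon receptor binds, was present on either strand in 32.2% of all promoters and in 6 of the 12 member promoters, with none at HSPA6, HSPA1A, HSPA1B, HSPA8, HSPH1 or HSPB1. TATAAA was present in 10.7% of all promoters and CCAAT in 32.0%. These matches describe the letters only.

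**Figure D1:**
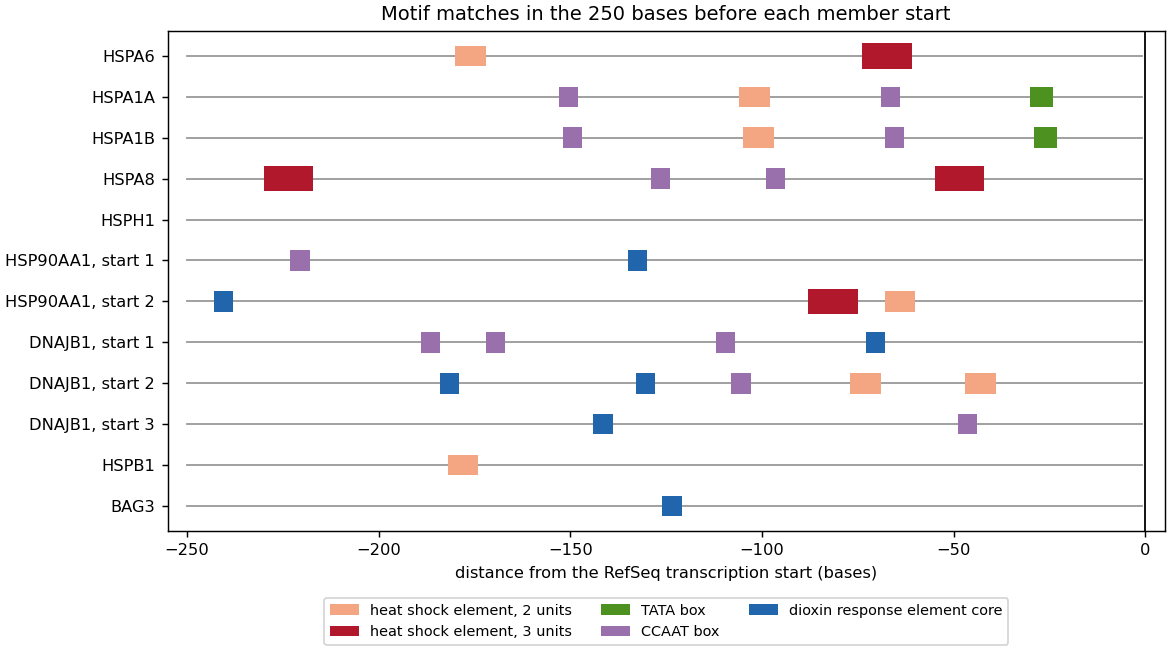
Motif matches in the 250 bases before the RefSeq start of 9 members, by distance from the start in bases. Each line is 1 of 12 promoters, boxes are matches on either strand, and the 3-unit heat shock elements stand at HSPA6, HSPA8 and the downstream start of HSP90AA1.

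The tables hold the authors' own comparisons: for 5 numbered contrasts, a linear fold change and an unadjusted p-value for each gene. No header names the groups behind a contrast, so contrasts are given by number, and "higher" means a fold change above 1. In the authors' deposited table for RNA-seq, SATB1 was 112-fold higher in contrast 1 and between 0.836-fold and 1.49-fold in the others. CYP1A1, which the aryl hydrocarbon receptor induces, was 1.46-fold in contrast 1, 195-fold in contrast 2, 36.0-fold in contrast 3, 45.6-fold in contrast 4 and 4.79-fold in contrast 5 of the same deposited table. Values per library were not used, so neither depth nor any SD or level can be given. The error after ± is the standard error of a log2 fold change implied by the deposited p-value, and its median over all genes was 0.319 for GRO-seq and 0.0577 for RNA-seq. A gene was called at a Benjamini-Hochberg adjusted p under 0.05, over all genes of the table. The median log2 fold change of all genes lay between -0.02 and 0.01 in every contrast of both tables. In bulk samples, fewer cells of a type and less RNA per cell cannot be told apart.

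In RNA-seq, 7 of the 10 members rose and 0 fell in contrast 1, where 23.2% of all genes rose and 20.7% fell. HSPA6 was not called there. In contrast 2, 6 members rose and 2 fell, beside 9.64% and 9.63% of all genes. HSPA6 is 1 of those 6, and the list was chosen on it. In contrast 3, 7 rose and 1 fell, beside 18.3% and 17.8% of all genes. In each of contrasts 4 and 5, 5 rose and 1 fell, beside 3.87% higher and 4.90% lower of all genes in contrast 4 and 10.5% and 10.9% in contrast 5. HSPA6 is also 1 of the 5 that rose in contrast 4. The median log2 fold change of the 10 members was 0.26, 0.16, 0.22, 0.08 and 0.12 in contrasts 1 to 5. With a minimum of 1.5-fold, 2, 3, 1, 1 and 0 members were called, beside 10.4%, 1.59%, 4.27%, 0.515% and 2.11% of all genes. Those of contrast 2 were HSPA6, HSPA1A and HSPA1B, of which the last 2 can share reads. The 1 of contrast 4 was HSPA6. Small changes were general in the table, where the median size of a called gene was 1.13-fold to 1.19-fold.

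**Figure D2:**
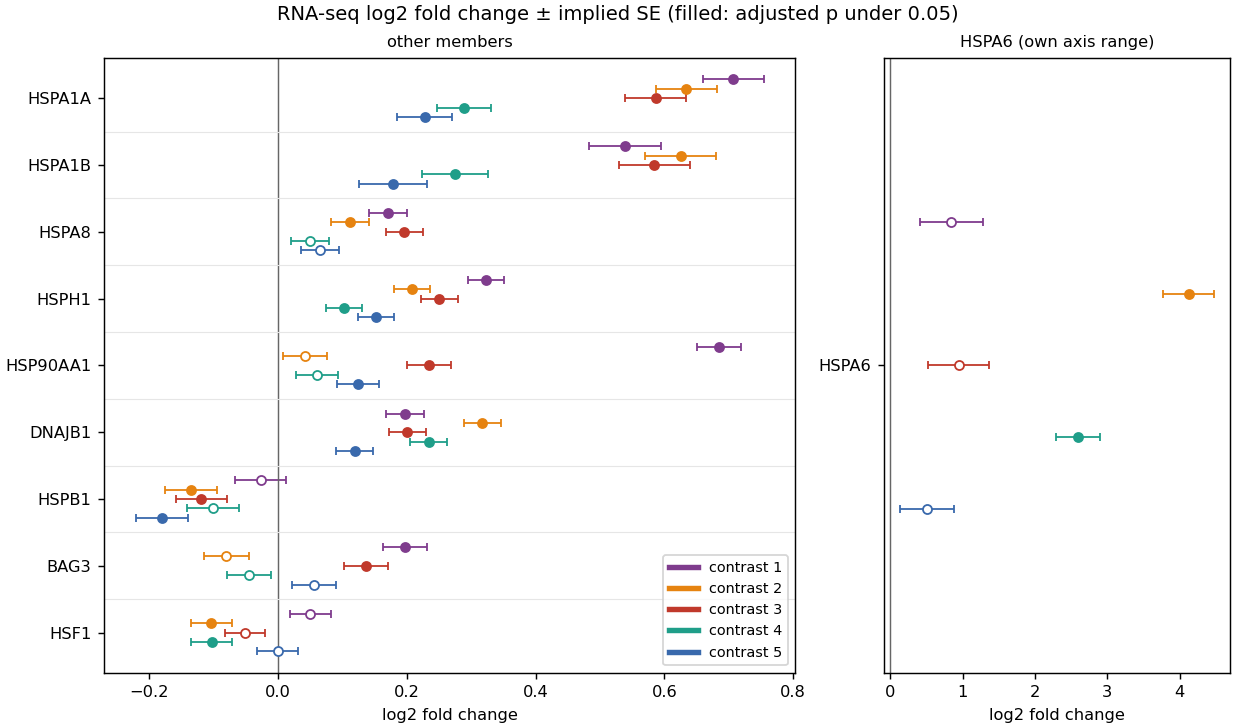
RNA-seq log2 fold change of each member in the 5 contrasts, with bars of 1 implied standard error. Filled points have an adjusted p under 0.05. HSPA6 has its own axis range, and its contrasts 2 and 4 reach 4.12 and 2.59.

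HSPA6 encodes HSP70B′, a strictly stress-inducible HSP70 that most unstressed cells hardly express. The RNA-seq fold change of HSPA6 in the authors' deposited table was 1.79 in contrast 1, 17.4 in contrast 2, 1.92 in contrast 3, 6.03 in contrast 4 and 1.42 in contrast 5. It was thus far higher in contrasts 2 and 4 than in the other 3. In contrast 2 it ranked 2 of 15535 rows by fold change, with a log2 fold change of 4.12 ± 0.35 and a 95% interval of 10.6-fold to 28.6-fold. The rank does not weigh this error, which was larger than the RNA-seq median of 0.0577. In contrast 4 HSPA6 again ranked 2, with a log2 fold change of 2.59 ± 0.31 and an interval of 3.89-fold to 9.36-fold. The list was chosen with earlier results of these data known, so this value too is given as a description. Contrasts 1, 3 and 5 did not pass, with adjusted p-values of 0.12, 0.085 and 0.39. Their intervals ran from 0.967-fold to 3.32-fold, from 1.05-fold to 3.51-fold and from 0.832-fold to 2.42-fold, so a moderate rise could be missed with this error. The interval of contrast 3 lay above 1, with an unadjusted p of 0.035 from the authors. HSPA6 lies on chromosome 1 (161524540 to 161526894). Its near-identical copy HSPA7 (161606172 to 161608550) has no row in the tables used here, and how reads that fit both were counted is not stated, so the value of HSPA6 is uncertain in this respect.

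HSPA1A and HSPA1B encode almost the same protein, the major stress-inducible HSP70. The genes lie 9796 bases apart on chromosome 6 (31815543 to 31817942 and 31827738 to 31830254). HSPA1A mRNA in the authors' deposited table was 1.63-fold in contrast 1, 1.55-fold in contrast 2, 1.5-fold in contrast 3, 1.22-fold in contrast 4 and 1.17-fold in contrast 5. HSPA1B was 1.45-fold, 1.54-fold, 1.5-fold, 1.21-fold and 1.13-fold in the same contrasts of the deposited table. Both genes rose in all 5 contrasts, with adjusted p-values between 1.3e-13 and 1.9e-04 for HSPA1A and between 4.2e-10 and 0.013 for HSPA1B. The fold changes of contrasts 1 to 3 were larger than those of contrasts 4 and 5 in both genes. Since the 2 genes differ at few bases, reads can be split between them and their 2 values are not independent measurements.

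HSPA8 encodes HSC70, the constitutive HSP70 of unstressed cells. Its RNA-seq fold change in the authors' deposited table was 1.13 in contrast 1, 1.08 in contrast 2 and 1.15 in contrast 3, all called, with adjusted p-values of 1.6e-05, 0.0069 and 3.3e-06. In contrasts 4 and 5 of the deposited table it was 1.04-fold (0.993 to 1.08) and 1.05-fold (1.00 to 1.09), and neither was called. HSPH1 encodes HSP105, a member of the HSP110 family that acts as a nucleotide exchange factor of HSP70. It rose in all 5 contrasts, by 1.25-fold, 1.16-fold, 1.19-fold, 1.07-fold and 1.11-fold in the deposited table, with adjusted p-values from 6.6e-11 in contrast 1 to 0.017 in contrast 4. In both genes contrasts 1 and 3 were highest and contrast 4 lowest.

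HSP90AA1 encodes the inducible cytosolic HSP90 alpha. In the authors' deposited table for RNA-seq it was 1.61-fold in contrast 1, with a log2 fold change of 0.68 ± 0.03 (adjusted p = 1.1e-16 by Benjamini-Hochberg). It was 1.03-fold in contrast 2, 1.18-fold in contrast 3, 1.04-fold in contrast 4 and 1.09-fold in contrast 5 of the deposited table. Contrasts 3 and 5 were called, at adjusted p-values of 2.5e-06 and 0.0059, and contrasts 2 and 4, in which HSPA6 was highest, were not. Their intervals ran from 0.981-fold to 1.08-fold and from 0.996-fold to 1.09-fold.

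DNAJB1 encodes HSP40, the J-protein that hands clients to HSP70. In the authors' deposited table for RNA-seq it was 1.15-fold, 1.25-fold, 1.15-fold, 1.18-fold and 1.09-fold in contrasts 1 to 5, and all 5 were called, with adjusted p-values from 8.5e-10 in contrast 2 to 0.0028 in contrast 5. Its highest 2 values were in contrasts 2 and 4, as for HSPA6 but far smaller. BAG3 encodes a co-chaperone that links HSP70 to small heat shock proteins and to selective autophagy. It rose in contrasts 1 and 3, by 1.15-fold and 1.10-fold in the deposited table (adjusted p-values of 1.7e-05 and 0.0019). In contrasts 2, 4 and 5 of the deposited table BAG3 was 0.946-fold, 0.970-fold and 1.04-fold, and none was called.

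HSPB1 encodes HSP27, a small heat shock protein that holds unfolded proteins without ATP. It did not rise in any of the 5 RNA-seq contrasts: in the authors' deposited table it was 0.982-fold, 0.911-fold, 0.921-fold, 0.933-fold and 0.883-fold. The falls in contrasts 2, 3 and 5 passed the test, with adjusted p-values of 0.017, 0.019 and 0.0015. HSF1, the transcription factor of the response, was 1.04-fold, 0.931-fold, 0.966-fold, 0.931-fold and 1.00-fold in the deposited table. Its falls in contrasts 2 and 4 passed, with adjusted p-values of 0.020 and 0.039. HSF1 is controlled largely by its assembly and modification, which neither assay measures.

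All 12 epithelial markers had a row in both tables, which hold no levels. In RNA-seq contrast 1, where 23.2% of all genes rose and 20.7% fell, markers of other cell types were also called. Of 9 fibroblast markers, 5 rose and 1 fell. COL1A2 was 681-fold, COL3A1 379-fold, COL1A1 12.1-fold and DCN 0.125-fold in the authors' deposited table. Of 12 epithelial markers, 6 rose and 6 fell, and of 5 leukocyte markers with a row, 1 rose (CD163, 302-fold in the deposited table). The implied standard errors of COL1A2, COL3A1 and CD163 were 0.46, 0.46 and 0.44 on the log2 scale, beside an RNA-seq median of 0.0577. Without levels, the size of these 3 folds is uncertain. The leukocyte count was near the share of all genes. In contrast 2, where HSPA6 was highest, 2 of 9 fibroblast markers rose and 1 fell, 1 of 12 epithelial markers rose and 4 fell, and 0 of 5 leukocyte markers rose and 1 fell. In contrasts 3, 4 and 5, epithelial markers were called 1 higher and 9 lower, 1 and 3, and 2 and 6, and fibroblast markers 3 and 0, 0 and 2, and 0 and 4. Leukocyte markers were called 1 higher and 0 lower, 0 and 1, and 0 and 2 in these contrasts. Of all genes, 9.64% rose and 9.63% fell in contrast 2, and 18.3% and 17.8% in contrast 3. The shares were 3.87% and 4.9% in contrast 4, and 10.5% and 10.9% in contrast 5. The part of the cell type markers in the changes of the heat shock genes was not tested.

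The implied standard errors of the 9 members in GRO-seq, 0.18 to 0.41 on the log2 scale, were larger than those of the same genes in RNA-seq, 0.03 to 0.06. In contrasts 1, 2, 4 and 5 GRO-seq called 0 of 9 members, beside 0.787%, 15.5%, 3.11% and 0.237% of all genes. At an unadjusted p under 0.05 the counts were 1, 2, 0 and 0 of 9, beside 14.7%, 29.1%, 15.6% and 11.5% of all genes. In contrast 3 GRO-seq called 2 members higher and 3 lower, beside 9.23% of all genes higher and 8.92% lower. With a stricter adjusted p under 0.01 these 5 calls were lost.

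The 2 members that rose in GRO-seq contrast 3 were DNAJB1 and HSPB1. In the authors' deposited table for GRO-seq, DNAJB1 was 0.940-fold, 1.37-fold, 1.57-fold, 1.35-fold and 1.07-fold in contrasts 1 to 5, and in contrast 3 its log2 fold change was 0.65 ± 0.23 (adjusted p = 0.048 by Benjamini-Hochberg). HSPB1 was 0.645-fold, 1.13-fold, 2.10-fold, 1.39-fold and 0.925-fold in the deposited table, and in contrast 3 its log2 fold change was 1.07 ± 0.37 (adjusted p = 0.048). In the same contrast HSPB1 mRNA fell.

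The 3 members that fell in GRO-seq contrast 3 were HSPH1, HSP90AA1 and HSPA8, whose mRNA rose in that contrast. HSPH1 in the authors' deposited table for GRO-seq was 0.404-fold, 0.566-fold, 0.456-fold, 1.37-fold and 1.17-fold in contrasts 1 to 5. Contrast 3 passed with a log2 fold change of -1.13 ± 0.39 (adjusted p = 0.044 by Benjamini-Hochberg), while contrast 1, at -1.31 ± 0.39, did not (unadjusted p = 0.0026 and adjusted p = 0.11). HSP90AA1 was 0.984-fold, 0.752-fold, 0.540-fold, 0.769-fold and 1.02-fold in the deposited table, with a log2 fold change of -0.89 ± 0.25 in contrast 3 (adjusted p = 0.017). HSPA8 was 0.706-fold, 1.06-fold, 0.563-fold, 0.921-fold and 1.00-fold in the deposited table, with -0.83 ± 0.24 on the log2 scale in contrast 3 (adjusted p = 0.020).

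HSPA1A and HSPA1B, whose mRNA rose in every contrast, passed in no contrast of GRO-seq. HSPA1A was 0.820-fold, 1.06-fold, 1.08-fold, 1.09-fold and 1.55-fold in the authors' deposited table, and HSPA1B was 0.724-fold, 0.980-fold, 1.05-fold, 1.08-fold and 1.61-fold. The interval of HSPA1A in contrast 2 ran from 0.686-fold to 1.64-fold and held its RNA-seq value. BAG3 was lowest in contrast 2, at 0.704-fold in the deposited table (adjusted p = 0.067), and 0.812-fold to 1.14-fold elsewhere. HSF1 was between 0.797-fold and 1.16-fold in the deposited table, and no contrast was called.

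**Figure D3:**
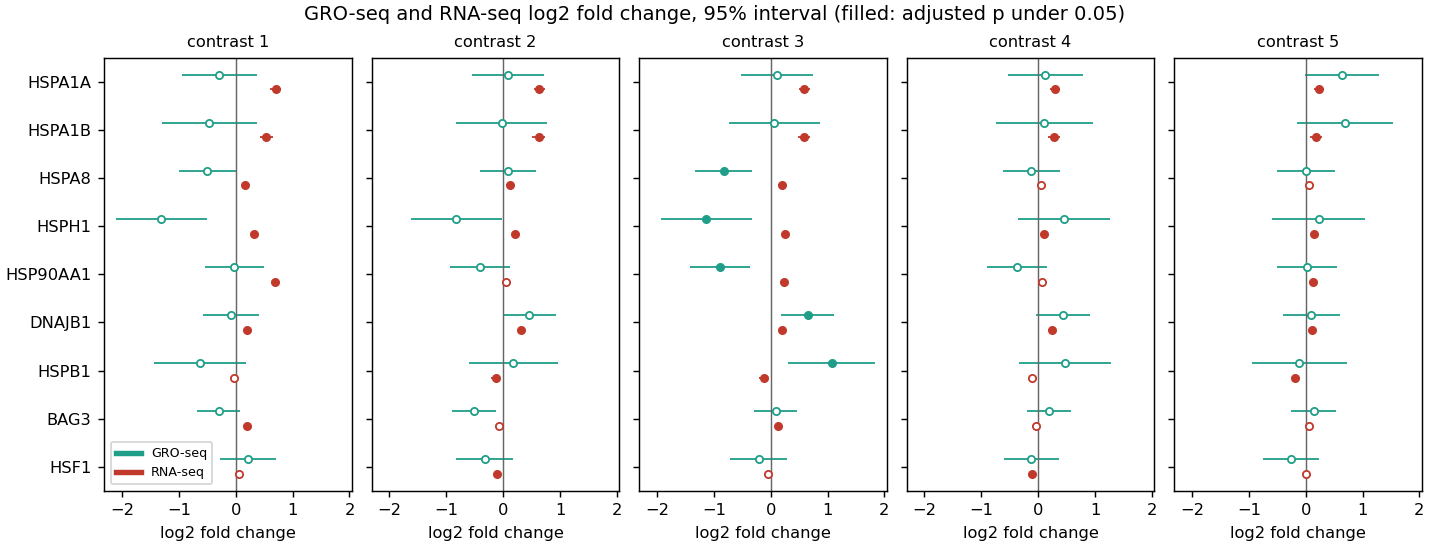
Log2 fold change of 9 members in GRO-seq and RNA-seq, by contrast, with 95% intervals from the implied standard errors. Filled points have an adjusted p under 0.05. In contrast 3, HSPA8, HSPH1 and HSP90AA1 lie below 0 in GRO-seq and above 0 in RNA-seq, and HSPB1 the other way round.

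Whether the assays differ was tested as the GRO-seq minus the RNA-seq log2 fold change of the same contrast number, over 13772 genes present in both tables. This takes a number to mean the same comparison in both, which the headers do not state. In contrast 1, 2 of 9 members differed, HSPH1 by -1.63 ± 0.39 (adjusted p = 0.0014 by Benjamini-Hochberg over these genes) and HSPA1A by -0.99 ± 0.32 (adjusted p = 0.028), beside 9.56% of all genes. In contrast 2, 1 of 9 differed, HSPH1 by -1.03 ± 0.39 (adjusted p = 0.047), beside 16.8% of all genes. In contrast 3, 4 of 9 differed, beside 26.2%. They were HSP90AA1 by -1.12 ± 0.26 (adjusted p = 1.7e-04), HSPA8 by -1.03 ± 0.25 (adjusted p = 3.7e-04), HSPH1 by -1.39 ± 0.39 (adjusted p = 0.0030) and HSPB1 by 1.19 ± 0.38 (adjusted p = 0.0093). In contrasts 4 and 5 the assays differed for 0 of 9 members, beside 4.65% and 3.23% of all genes, and for 0 at an unadjusted p under 0.05, beside 15.7% and 15.4%. HSPH1 was the only member called in all 3 of contrasts 1 to 3. With Welch and Satterthwaite degrees of freedom, the calls of HSPH1 in contrast 2 and of HSPA1A in contrast 1 were lost (adjusted p-values of 0.080 and 0.065), and with normal quantiles that of HSPH1 in contrast 2 (adjusted p = 0.076).

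In RNA-seq, contrasts 2 and 3 both carried a large CYP1A1 rise, as did contrasts 4 and 5, and the members were compared within each pair. CYP1A1 in GRO-seq was 163-fold in contrast 2 and 48.0-fold in contrast 4 of the authors' deposited table, both called, but 3.99-fold in contrast 3 and 2.90-fold in contrast 5, which were not called (adjusted p-values of 0.12 and 0.49). The errors were taken as independent, which a common control group would break. In RNA-seq the log2 fold change of HSPA6 was 3.18 ± 0.55 higher in contrast 2 than in contrast 3, which is a description since contrast 2 chose it. Of the other 9 members, DNAJB1 was higher in contrast 2 by 0.12 ± 0.04 (adjusted p = 0.029 by Benjamini-Hochberg over all genes). HSP90AA1 was lower in contrast 2 by -0.19 ± 0.05 (adjusted p = 0.0010) and BAG3 by -0.22 ± 0.05 (adjusted p = 1.4e-04). These were 3 of the 9 members other than HSPA6, beside 17.7% of all genes called. HSPA1A and HSPA1B differed between these contrasts by 0.05 and 0.04, which were not called.

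Between contrasts 4 and 5, a pair compared after the data had been seen, 2 of 10 members differed in RNA-seq, beside 12.3% of all genes. They were HSPA6 and DNAJB1. Without HSPA6, DNAJB1 alone was called, which is near that share. HSPA6 was higher in contrast 4 by 2.09 ± 0.49, a description since the list was chosen with earlier results of these data known. DNAJB1 was higher in contrast 4 by 0.12 ± 0.04 (adjusted p = 0.041 by Benjamini-Hochberg). The DNAJB1 difference was lost in both pairs with normal quantiles (adjusted p-values of 0.20 and 0.16). In GRO-seq, 0 of 9 members differed in either pair, beside 0.339% of all genes between contrasts 2 and 3 and 0.597% between contrasts 4 and 5. At an unadjusted p under 0.05, 2 of 9 members (BAG3 and HSPA8) were counted between contrasts 2 and 3, beside 5.01% of all genes, and 0 between contrasts 4 and 5, beside 5.53%.

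The genes whose RNA-seq pattern was most like that of HSPA6 were sought by Euclidean distance over the 5 log2 fold changes, as a description. The nearest was TEX14 at a distance of 1.22, a gene known for intercellular bridges of germ cells, which was 2.02-fold, 9.89-fold, 1.30-fold, 3.80-fold and 1.55-fold in the authors' deposited table. VIPR1, a receptor of vasoactive intestinal peptide, followed at 1.86, CYP1B1 at 1.87, AHRR at 1.91 and HGFAC at 2.24. CYP1B1, a monooxygenase, and AHRR, the repressor of the aryl hydrocarbon receptor, are known targets of that receptor. In the deposited table CYP1B1 was 7.60-fold and AHRR 7.38-fold in contrast 2, less than HSPA6, and CYP1B1 was 4.02-fold and AHRR 3.62-fold in contrast 3, more than HSPA6. No other member of the list was among the 5.

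For HSPA1A, the other member with the largest RNA-seq change among called values, the nearest genes were KIR2DL4, a receptor known from natural killer cells, at 0.173, HSPA1B at 0.176, FZD7, a Wnt receptor, at 0.229, ZBTB46 at 0.288 and FAM167A at 0.323. HSPA1B may share reads with HSPA1A, so that its nearness is uncertain.

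**Figure D4:**
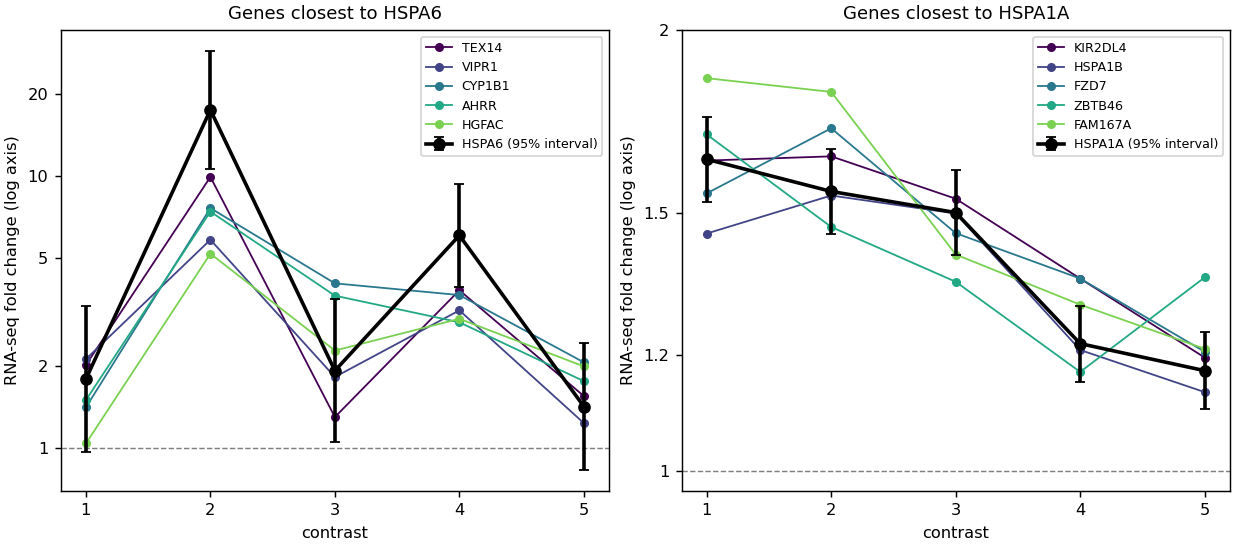
RNA-seq fold changes in contrasts 1 to 5 (log axis) of HSPA6 and HSPA1A, with 95% intervals, and of the 5 genes nearest to each. HSPA6 stands above its neighbours in contrasts 2 and 4, while HSPA1A and its neighbours reach at most 1.85-fold.

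Of 33 other cytosolic genes of the heat shock response, RNA-seq called 15 higher and 6 lower in contrast 1, 5 and 2 in contrast 2, 10 and 3 in contrast 3, 4 and 2 in contrast 4, and 8 and 1 in contrast 5. Their median log2 fold change was between 0.02 and 0.06 in the 5 contrasts. Of all genes, 23.2%, 9.64%, 18.3%, 3.87% and 10.5% were called higher in contrasts 1 to 5. Those called lower were 20.7%, 9.63%, 17.8%, 4.9% and 10.9%. CRYAB, a small heat shock protein known from lens and muscle, was 3.43-fold in contrast 2 (adjusted p = 6.3e-07 by Benjamini-Hochberg) and 3.85-fold in contrast 4 (adjusted p = 2.0e-04) of the authors' deposited table. DNAJB6, a J-protein that suppresses aggregation, was called in contrasts 2 to 5 of the deposited table, at 1.2-fold, 1.16-fold, 1.12-fold and 1.15-fold. Only up to 4 called genes per contrast are named, so its contrast 1 is not given here. BAG1, a nucleotide exchange factor of HSP70, fell in all 5 RNA-seq contrasts of the deposited table, to 0.660-fold, 0.883-fold, 0.839-fold, 0.890-fold and 0.891-fold. In GRO-seq BAG1 rose to 1.73-fold and 2.09-fold in contrasts 2 and 3, and its assay difference is not given here. UBB, a polyubiquitin gene, rose in GRO-seq to 1.98-fold and 2.10-fold in contrasts 2 and 3 of the deposited table.

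Chaperones of other compartments were counted in the same way. Of 16 genes of the endoplasmic reticulum and the unfolded protein response, RNA-seq called 12 higher and 1 lower in contrast 1, 2 and 0 in contrast 2, 11 and 0 in contrast 3, 0 and 0 in contrast 4, and 13 and 0 in contrast 5. HSPA5, the HSP70 of the endoplasmic reticulum, was 1.25-fold in contrast 3 and 1.30-fold in contrast 5 of the authors' deposited table. The shares of all genes called higher were 23.2%, 9.64%, 18.3%, 3.87% and 10.5% in contrasts 1 to 5, so the counts of contrasts 2 and 4 were near the background. The shares of all genes called lower were 20.7%, 9.63%, 17.8%, 4.9% and 10.9%. Both sets of shares stand behind the RNA-seq counts of the lists that follow. Of 31 proteasome subunits, 11, 1, 13, 0 and 19 rose in contrasts 1 to 5 and 0 fell. Of 10 genes of metal and proteotoxic stress, 5 rose and 2 fell in contrast 1, 1 rose and 4 fell in contrast 2, 4 rose and 1 fell in contrast 3, 0 rose and 1 fell in contrast 4, and 5 rose and 0 fell in contrast 5. MT1X and MT2A, metallothioneins that bind zinc and cadmium, were 1.93-fold and 1.73-fold in contrast 1 of the deposited table.

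Of 8 TRiC subunits, which form the cytosolic chaperonin, RNA-seq called 4 higher in contrast 1, 1 higher and 1 lower in contrast 3, and 0 in contrasts 2, 4 and 5. Of 8 mitochondrial chaperones, 3 rose and 2 fell in contrast 1, 0 rose and 2 fell in contrast 2, 1 rose and 4 fell in contrast 3, 0 were called in contrast 4, and 1 rose and 4 fell in contrast 5. In GRO-seq contrast 3, 3 of the 8 mitochondrial genes fell, beside 8.92% of all genes, with a median log2 fold change of -0.72 over the list. TRAP1, the mitochondrial HSP90, was 0.406-fold there in the authors' deposited table. GRO-seq called at most 5 genes of any of these lists in a contrast. Those were 3 higher and 2 lower among the other cytosolic genes in contrast 3, beside 9.23% and 8.92% of all genes. In the same contrast 2 of 9 metal and proteotoxic stress genes with a row rose and 0 fell, and the median log2 fold change of that list was -0.56. The 2 were SQSTM1, a receptor of selective autophagy, at 2.17-fold and ATF3, a stress-induced transcription factor, at 4.42-fold in the deposited table.

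**Figure D5:**
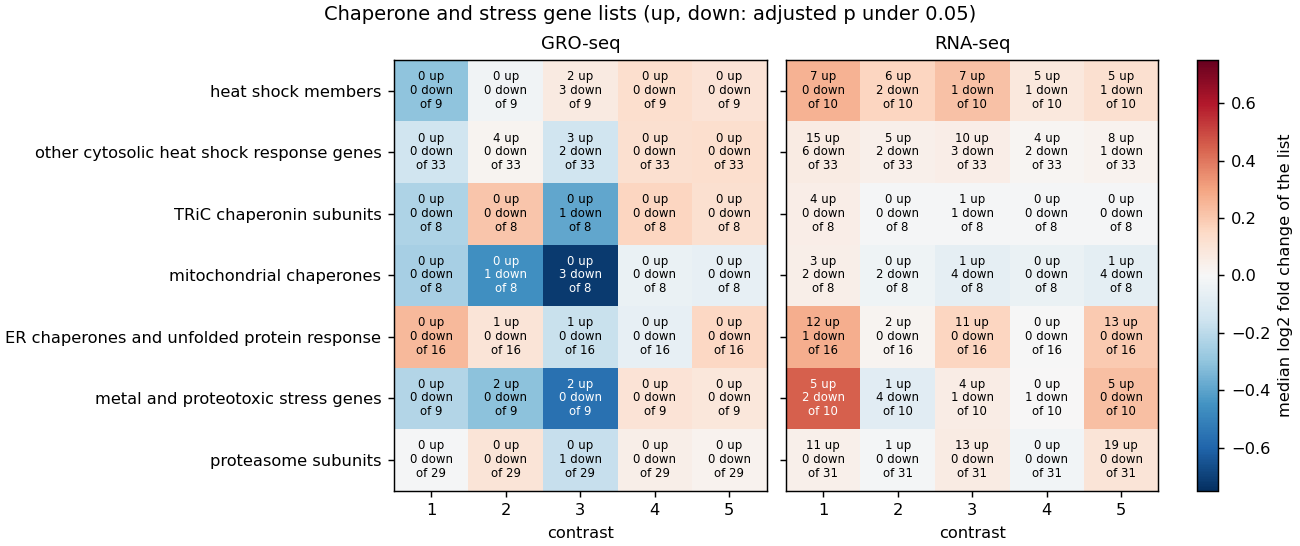
Counts of genes called higher (up) and lower (down) in each chaperone and stress list, by contrast, in GRO-seq and RNA-seq, with the colour giving the median log2 fold change of the list. The endoplasmic reticulum list has 12, 11 and 13 genes up in RNA-seq contrasts 1, 3 and 5, against 2 and 0 in contrasts 2 and 4.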

How the data were processed

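Each assay covered 24 libraries in 6 groups of 4. Per the file headers, the deposited tables give the authors' fold change, which is a ratio, beside an unadjusted p-value for every gene in 5 contrasts. The submitters' processing notes name BWA 0.7.16a with featureCounts and limma (GRO-seq), STAR with DESeq (RNA-seq) and the build GRCh38. Annotation, filters, normalization and strand use are not given in these sources, so overlapping and near-identical genes are uncertain. One label text gives the short exposure as 72 hours or 3 days, and the titles and characteristics were followed.

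With no values per library in use, the fallback written for that case, the authors' own comparisons, took the place of fits on libraries. Within a contrast, the deposited p-values were adjusted by Benjamini-Hochberg over every row with a symbol (14745 for GRO-seq and 15535 for RNA-seq), without the 156 RNA-seq rows that had none (0.994%). To obtain the implied standard error, the size of a log2 fold change was divided by the Student quantile of its p-value. The degrees of freedom, 24 for GRO-seq and 30 for RNA-seq, were those that made the 5 errors of a gene vary least. Differences were tested with both errors taken as independent. Motifs were searched on both strands of RefSeq promoters. The steps were tested on simulated data.

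The members and lists were chosen with earlier results of these data known. All 10 members are named, with SATB1, CYP1A1, CYP1B1 and TIPARP, the 5 genes nearest to HSPA6 and to HSPA1A, and up to 4 called genes with the smallest adjusted p per list and contrast. Alternatives were other thresholds, adjustments, minimum folds, centring and degrees of freedom. The software was Python 3.11.15 with scipy 1.17.1, pandas 2.3.3, numpy 2.4.6 and matplotlib 3.10.9.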

Additional observations from a re-analysis of the deposited data

Results flagged for a closer look

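In 7 cases the GRO-seq and RNA-seq log2 fold changes of a member differed by a test of the difference itself (adjusted p under 0.05 by Benjamini-Hochberg over all genes in both tables). The GRO-seq minus the RNA-seq value was -0.99 for HSPA1A and -1.63 for HSPH1 in contrast 1, and -1.03 for HSPH1 in contrast 2. In contrast 3 it was -1.12 for HSP90AA1, -1.03 for HSPA8, -1.39 for HSPH1 and 1.19 for HSPB1.

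In RNA-seq, 6 further differences were between contrasts. Contrast 2 minus contrast 3 gave 3.18 for HSPA6, a description since contrast 2 chose that gene, -0.19 for HSP90AA1, -0.22 for BAG3 and 0.12 for DNAJB1. Contrast 4 minus contrast 5 gave 2.09 for HSPA6 and 0.12 for DNAJB1, and this pair was compared after the data had been seen.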

How the results depend on the processing

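No paired analysis was possible because the tables hold no values per library. For the same reason leaving out replicates, other normalizations and count filters were not run. Adjusting over all rows changed the call of 0 of 95 values of the members. Centring on the median of all genes changed 1, HSF1 in RNA-seq contrast 5, from a log2 fold change of -0.00024 to 0.0067, uncalled in both. With an adjusted p under 0.1, GRO-seq contrast 2 had 1 called member in place of 0, and HSPA6 was also called in RNA-seq contrast 3. The 5 members of GRO-seq contrast 3 became 0 with an adjusted p under 0.01, 2 with a minimum of 2-fold and 0 by Benjamini-Yekutieli adjustment, which also took RNA-seq contrast 2 from 8 to 5. Asking for 1.5-fold took the RNA-seq counts of contrasts 1 to 5 from 7, 8, 8, 6 and 6 to 2, 3, 1, 1 and 0. Asking for 2-fold took them to 0, 1, 0, 1 and 0. HSPA6 was the only call of contrast 4 at 1.5-fold, and of contrasts 2 and 4 at 2-fold. The assay difference in contrast 1 fell from 2 members to 1 with Welch and Satterthwaite degrees of freedom, an alternative added after seeing the data. That in contrast 2 fell from 1 to 0 with these and 0 with normal quantiles. The RNA-seq difference of contrasts 4 and 5 fell from 2 to 1 with normal quantiles, and the 1 left was HSPA6. The large implied errors of GRO-seq limit what its uncalled values can show.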
